A study of Tupaia belangeri chinensis with 12 samples.

Results

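Genes of synaptic vesicle release were followed through the cortical layers of fetal Chinese tree shrews, small mammals that stand near primates in evolution. The members were taken by gene symbol: synaptotagmins (SYT), synapsins (SYN), synaptophysin and its relatives (SYP, SYPL), the SNAP, syntaxin (STX) and VAMP families, syntaxin-binding proteins (STXBP), SV2 proteins, RAB3 proteins, complexins (CPLX), UNC13 and RIMS proteins, BSN, PCLO, NSF and the NAP adaptors. Names that end in li and a number, called copy names here, were left out, although such an entry need not be a copy. The rule found 81 genes among 81418 gene IDs, and the rule itself uses names and no measured value.

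A neuron stores transmitter in vesicles and releases it when calcium enters the nerve ending. A vesicle SNARE, VAMP2, zips together with SNAP25 and a syntaxin of the plasma membrane and pulls the membranes into contact. The UNC13 proteins and the RIM scaffolds prepare the vesicle, complexins hold the assembled SNAREs, synaptotagmin-1 senses the calcium, and NSF with its SNAP adaptors takes the spent SNAREs apart. Related SNAREs drive membrane traffic in every cell, between endoplasmic reticulum, Golgi, endosomes and the cell surface. In fetal cortex most release genes are known from young neurons, which use parts of the same machinery for growing axons before synapses form.

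The 12 libraries hold 3 each of the ventricular zone (VZ), where radial glia divide beside the ventricle, the inner and outer subventricular zones (ISVZ and OSVZ), which hold further progenitors and migrating cells, and the cortical plate (CP), where neurons settle. The labels give embryonic day 37 for all of them, although day 35 stands in the tables' own names. No group was treated, and all tissue was cut by laser from Nissl-stained frozen sections, so each library is a mixture of cells. Whether each library of a layer is a separate animal is not in the labels, so the p-values reflect only how far these samples spread, and that spread may be technical. Within a layer, values are always given in the order of libraries 1, 2 and 3, as scaled FPKM (fragments scaled by transcript length and library size, divided by 1 factor per library), which compares genes per length.

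Summed FPKM ranged from 244666 to 276629 per library, the number of reads is not known, and relative depth, from the width of the deposited bounds, ranged from 0.688 in VZ 1 to 1.68 in OSVZ 3. Identical values were found in 0 pairs of libraries. Neuron markers (RBFOX3, MAP2, TUBB3, NEUROD6, SLA and BCL11B) summed to 499.9 to 642 in VZ, 973 to 1114 in ISVZ, 1330.0 to 1345 in OSVZ and 1951 to 2602 in CP. Of these 6, 4 were called higher in CP than in the germinal layers, and only TUBB3 was called higher in CP than in OSVZ. SLA and BCL11B were not called in CP against the germinal layers, and BCL11B had layer means of 14.8, 25.5, 11.3 and 10.8. Summed radial glia markers (PAX6, SOX2, VIM, HES1, HES5 and SLC1A3) went against the neuron sum, from 696 to 813 in VZ to 21.8 to 40.1 in CP. EOMES, which defines intermediate progenitors, was at 0.231 in CP. Markers of other cells moved with the layers too: in CP against the germinal layers, 5 of 7 tested interneuron markers, 5 of 5 microglia markers and 4 of 4 markers of oligodendrocyte precursors were lower and LUM, of the meninges, was higher (3.13 ± 0.28, adjusted p = 5.14e-06). Interneuron markers summed to 240.5 to 344 in VZ and 32.0 to 93.0 in CP, and microglia markers to 16.6 to 24.0 and 0.994 to 1.99. Oligodendrocyte precursor markers, of which 3 of 4 were higher in OSVZ than in VZ, summed to 20.3 to 27.5 in VZ, 46.3 to 70.2 in OSVZ and 3.76 to 12.9 in CP. Markers of dividing cells (4 of 4 tested), intermediate progenitors (3 of 3) and motile cilia (3 of 3) were lower in CP as well, and of the endothelium markers 1 of 4 was. The part of these cells in the results was not tested. Choroid plexus markers stood out in 2 VZ libraries, with sums of 556 in VZ 1, 2664 in VZ 2 and 37.0 in VZ 3. OSVZ 3 stood apart from the other OSVZ libraries for many release genes, and its values are given with each result that they touch.

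Of the 81 members, 65 reached 1 scaled FPKM in at least 3 libraries and were tested with limma on log2(scaled FPKM + 1), and 16 were not. Fold changes are on that log2 scale, which understates the change of low genes, and are given ± SE of the model. A call is a Benjamini-Hochberg adjusted p under 0.05 over all 14101 genes tested. Over the 4 layers, 54 of the 65 tested members differed in the F test, where 51.8% of all tested genes did. RAB3B, RIMS2, CPLX3 and STXBP2 reached 1 only in OSVZ or CP libraries, so they entered the test through those layers. The direction of their differences is therefore not independent of the filter.

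The cortical plate was compared with the mean of VZ, ISVZ and OSVZ, the germinal layers. In CP, 43 tested members were higher and 9 were lower, and 13 were not called. Among all tested genes 24% were higher and 28.7% lower in the same comparison. The median log2 difference of the tested members was 0.84, against -0.05 for all tested genes. The 3 largest differences belonged to SYT4, RAB3B and STXBP5L, and the 3 lowest to SYPL1, STXBP4 and VAMP3. RAB3B passed the filter only through OSVZ and CP libraries. In bulk tissue, a larger share of neurons in CP and more of a transcript in each neuron cannot be told apart.

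**Figure D1:**
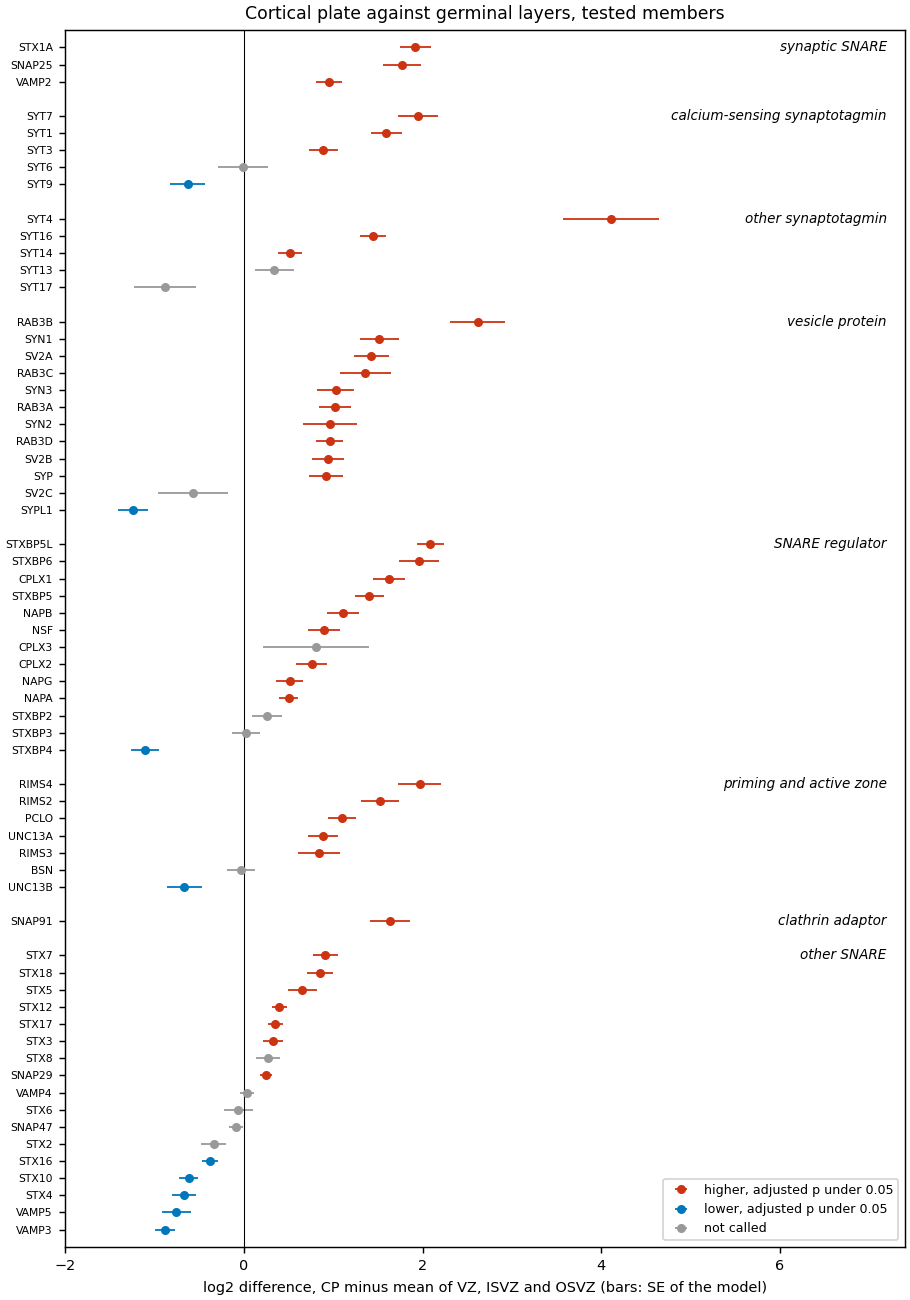
Log2 difference of CP minus the mean of the germinal layers (horizontal axis) for tested members, grouped by role, with bars for the SE of the model. Red points are members called higher and blue points the 9 called lower, and most blue points are SNAREs of general membrane traffic.

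The rise began below the cortical plate. Between OSVZ and VZ, 35 members were higher and 6 lower, against a background of 11.7% and 16.2% of tested genes, with a median log2 difference of 0.67 for members and -0.02 for all genes. The 35 include RAB3B, RIMS2 and CPLX3, which passed the filter only through OSVZ and CP libraries. Between CP and OSVZ, 20 were higher and 6 lower, where 13.7% and 17.3% of tested genes were, with a median of 0.31. These comparisons share libraries, so their counts are not independent of each other. Layer means climbed from VZ through ISVZ and OSVZ to CP for 32 members, an order that 15.4% of tested genes showed, and fell in that order for 6 members, against 19.6% of tested genes. The highest mean lay in CP for 42 members, in VZ for 10, in OSVZ for 9 and in ISVZ for 4. Among all tested genes it lay in CP for 35%, in VZ for 34.1%, in OSVZ for 14.4% and in ISVZ for 16.5%.

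Steps between neighbouring germinal layers were rarely called. From VZ to ISVZ, STX1A and SYT1 rose and SYPL1 and VAMP5 fell, where 1.54% of tested genes rose and 7.18% fell. With the replicate number as a block, STX1A lost that call (adjusted p = 0.0551), and RAB3D (adjusted p = 0.0267) and SYT6 (adjusted p = 0.0387) gained a call as higher. STX1A also lost it without VZ 2, VZ 3, ISVZ 1, ISVZ 2, OSVZ 1, CP 1 or CP 3, with adjusted p from 0.0521 to 0.185. The count of 4 became 1 without VZ 2 or ISVZ 2, 2 without VZ 3 or ISVZ 1, 7 without ISVZ 3 and 12 without OSVZ 3. Among all tested genes 1229 were called in that step, and 403, 509, 588, 812, 1092 and 1374 in these fits, in that order. From ISVZ to OSVZ, only SYN1 was called, as higher in OSVZ (1.42 ± 0.26, adjusted p = 0.0496), where 0.482% of tested genes were higher and 0.121% lower. In that step limma called 0 members lower at the adjusted threshold, and at an unadjusted p under 0.05 it had 33 members higher and 3 lower. The SYN1 call lay at the threshold: it was lost without any single library except ISVZ 1 and OSVZ 2, with adjusted p from 0.0609 to 0.201. Without ISVZ 1 the count of called members was 9, and without OSVZ 2 it was 8. Calls among all tested genes rose as well, from 85 to 556 without ISVZ 1 and to 272 without OSVZ 2.

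**Figure D2:**
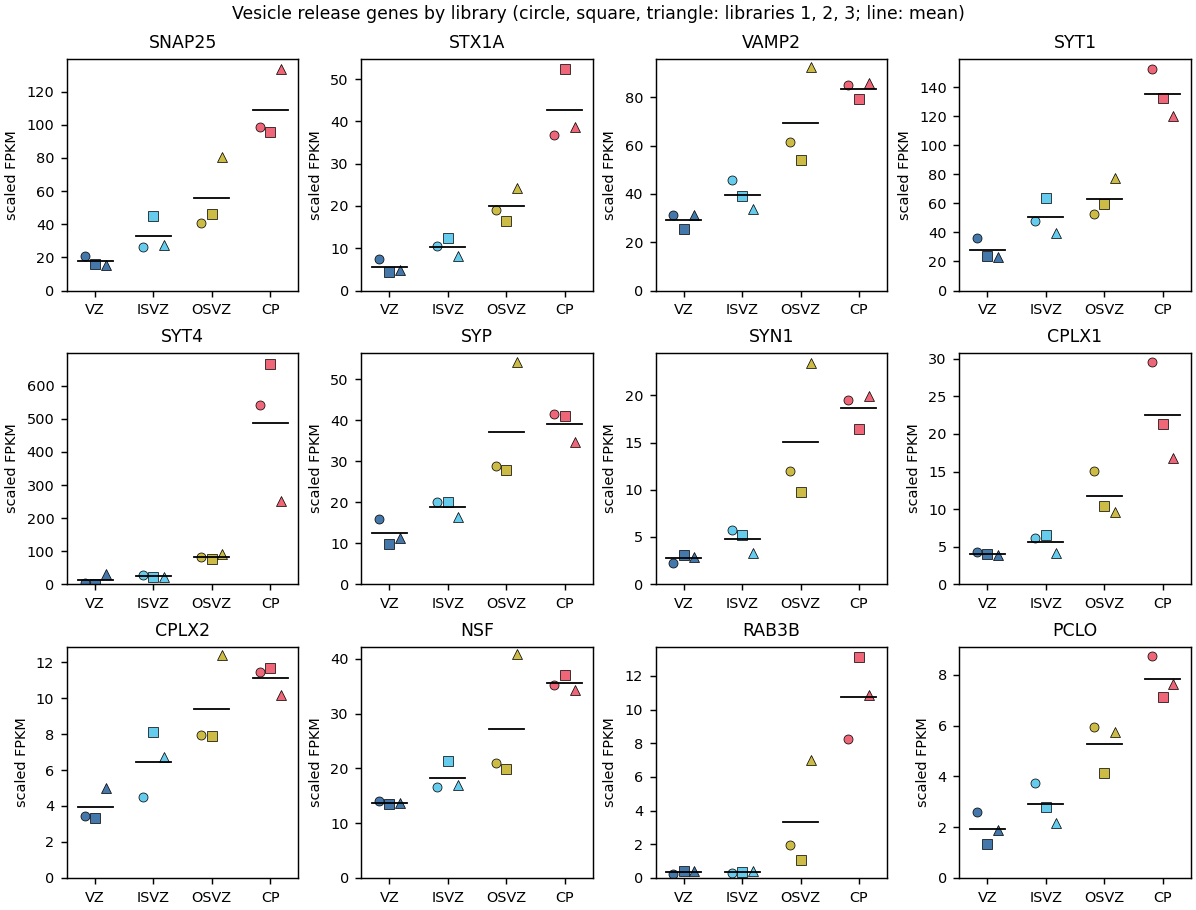
Scaled FPKM (vertical axes, each from 0) of 12 members in every library of VZ, ISVZ, OSVZ and CP, with circles, squares and triangles for libraries 1, 2 and 3 and a line for the layer mean. Every VZ and ISVZ library lies below every CP library in each panel, and for SYP, SYN1, CPLX2, NSF and VAMP2 the triangle of OSVZ 3 lies above all CP libraries.

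The tested SNAREs that carry vesicle fusion at synapses were all higher in CP. The group has 5 members, of which 4 were tested, and all 4 rose both in CP against the germinal layers and in OSVZ against VZ, with a median of 1.36 for CP. Their summed level, with VAMP1 included, was 49.9 to 65.1 in VZ, 75.5 to 103 in ISVZ, 127 to 217 in OSVZ and 236 to 272 in CP.

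SNAP25 supplies a pair of helices to the SNARE bundle from the plasma membrane. The gene (TSDBGID.5344, chromosome 10, 86618036 to 86726781) measured 20.8, 16.1 and 15.6 in VZ, 26.1, 44.7 and 27.4 in ISVZ, 40.7, 46.2 and 80.3 in OSVZ, and 98.4, 95.5 and 134 in CP. Every CP library lay above every other library, with OSVZ 3 the nearest. The difference was 1.77 ± 0.22, adjusted p = 4.72e-05 against the germinal layers and 1.56 ± 0.27, adjusted p = 0.00164 in OSVZ against VZ. Between CP and OSVZ it was 1.01 ± 0.27, adjusted p = 0.015, and this call was lost without OSVZ 1 (0.81, adjusted p = 0.0636), OSVZ 2 (0.91, adjusted p = 0.0555) or CP 3 (0.86, adjusted p = 0.054).

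STX1A, a syntaxin of the presynaptic membrane, binds both SNAP25 and VAMP2. It (TSDBGID.248, chromosome 2, 51772299 to 51793556) measured 7.48, 4.35 and 4.79 in VZ, 10.5, 12.3 and 8.12 in ISVZ, 19.1, 16.3 and 24.2 in OSVZ, and 36.8, 52.3 and 38.6 in CP. The 12 libraries stepped up layer by layer with no overlap, closest between VZ 1 and ISVZ 3. STX1A was higher in CP than in the germinal layers by 1.92 ± 0.18, adjusted p = 5.57e-06, and higher than in OSVZ by 1.06 ± 0.22, adjusted p = 0.00385.

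VAMP2, the SNARE of the vesicle membrane, was the most abundant of the group in VZ. The gene (TSDBGID.3056, chromosome 16, 29317825 to 29339368) measured 31.2, 25.4 and 31.2 in VZ, 45.6, 39.2 and 33.6 in ISVZ, 61.7, 54.3 and 92.5 in OSVZ, and 85.3, 79.5 and 86.0 in CP. OSVZ 3 was the highest of all 12 libraries, and the other OSVZ libraries lay below CP. VAMP2 was higher in CP than in the germinal layers (0.95 ± 0.15, adjusted p = 0.000254) and higher in OSVZ than in VZ (1.19 ± 0.18, adjusted p = 0.000923), while CP against OSVZ was not called (0.30 ± 0.18, adjusted p = 0.237). VAMP1, a close relative used by other neuron types, stayed under 1 in every library, at 0.764 at most, and was not tested.

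Regulators of the SNARE machine followed the SNAREs. The group has 15 members, of which 14 were tested: 10 were higher in CP than in the germinal layers, STXBP4 was lower, and CPLX3, STXBP2 and STXBP3 were not called. Of the same 14, 8 were higher in OSVZ than in VZ and 2, STXBP3 and STXBP4, were lower.

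STXBP2 and STXBP3, known mainly from secretion outside neurons, did not follow the called regulators: layer means of STXBP3 from VZ to CP were 4.96, 3.15, 2.86 and 3.80, and those of STXBP2 were 0.579, 0.357, 1.07 and 0.995. STXBP2 was called higher in CP only without CP 3 (0.47, adjusted p = 0.0475). STXBP3 was called lower in OSVZ than in VZ (-0.63 ± 0.19, adjusted p = 0.0299), a call lost without VZ 2, VZ 3 or any OSVZ library, with adjusted p from 0.0517 to 0.095.

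The complexins clip onto assembled SNAREs. CPLX1 (TSDBGID.26128, chromosome 9, 34748192 to 34800719) measured 4.26, 3.99 and 3.94 in VZ, 6.12, 6.56 and 4.16 in ISVZ, 15.0, 10.4 and 9.61 in OSVZ, and 29.5, 21.3 and 16.8 in CP. Every CP library lay above every OSVZ library, and CPLX1 was higher in CP than in OSVZ (0.88 ± 0.22, adjusted p = 0.0101) as well as than in the germinal layers (1.63 ± 0.18, adjusted p = 1.84e-05). CPLX2 (TSDBGID.12, chromosome 19, 59110552 to 59196295) measured 3.43, 3.34 and 5.03 in VZ, 4.49, 8.11 and 6.74 in ISVZ, 7.92, 7.87 and 12.4 in OSVZ, and 11.4, 11.7 and 10.2 in CP. Its CP libraries overlapped OSVZ, where OSVZ 3 was the highest of all, and the calls were 0.76 ± 0.18, adjusted p = 0.00355 against the germinal layers and 1.07 ± 0.21, adjusted p = 0.00388 in OSVZ against VZ. CPLX2 overlaps an unnamed open reading frame that rose from 8.22 in VZ to 26.6 in CP by layer means, so its own level is uncertain.

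CPLX3, known from retinal synapses and from subplate neurons, was low in VZ and ISVZ and uneven between the libraries of OSVZ and of CP. It (TSDBGID.16085, chromosome 23, 32250549 to 32255578) measured 0.140, 0.210 and 0.324 in VZ, 0.751, 0 and 0.0962 in ISVZ, 10.2, 5.41 and 1.58 in OSVZ, and 13.4, 0.899 and 0.709 in CP. High values came from CP 1, OSVZ 1 and OSVZ 2, with the other CP libraries below them and OSVZ 3 the lowest of its layer. CP against the germinal layers was not called (0.81 ± 0.59, adjusted p = 0.274), and without CP 1 the gene was called lower in CP than in OSVZ (-1.66, adjusted p = 0.0318). OSVZ against VZ was (2.22 ± 0.73, adjusted p = 0.0408), and leaving out any VZ library, ISVZ 2, ISVZ 3, OSVZ 1 or OSVZ 2 ended that call, with adjusted p from 0.0529 to 0.139. CPLX4 was listed at 0 in every library.

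NSF is the ATPase that pulls used SNAREs apart, and the NAP genes encode the SNAP adaptors that bring it to them. NSF (TSDBGID.9764, chromosome 16, 61267060 to 61447910) measured 14.1, 13.5 and 13.7 in VZ, 16.7, 21.3 and 16.9 in ISVZ, 21.0, 19.8 and 40.8 in OSVZ, and 35.3, 37.0 and 34.2 in CP. OSVZ 3 again lay above CP, with the other OSVZ libraries well below. The difference was 0.89 ± 0.18, adjusted p = 0.00135 in CP against the germinal layers and 0.86 ± 0.22, adjusted p = 0.0123 in OSVZ against VZ. An antisense gene at NSF rose along with it, from 8.90 in VZ to 16.0 in CP by layer means, and reads of the pair may be shared.

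NAPB encodes beta-SNAP, the form of the brain, and NAPA encodes alpha-SNAP, present in all cells. NAPB (TSDBGID.5939, chromosome 10, 100900867 to 100976454) measured 14.0, 11.4 and 10.9 in VZ, 18.6, 21.9 and 16.2 in ISVZ, 25.5, 25.2 and 44.9 in OSVZ, and 38.9, 52.7 and 36.9 in CP. It was higher in CP than in the germinal layers by 1.10 ± 0.18, adjusted p = 0.000349 and in OSVZ than in VZ by 1.28 ± 0.22, adjusted p = 0.00167. NAPA changed less, with layer means of 18.3, 18.2, 23.5 and 28.4 and a difference of 0.50 ± 0.10, adjusted p = 0.0017 in CP. The ratio of NAPB to NAPA was 0.557 to 0.845 in VZ and 1.22 to 1.80 in CP, so it crossed 1 between these layers. NAPG, for gamma-SNAP, was called higher in CP (0.51 ± 0.15, adjusted p = 0.0151), but without CP 1 it was not (0.41, adjusted p = 0.0822).

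The tomosyns STXBP5 and STXBP5L and the related STXBP6 (amisyn), which bind syntaxin in place of VAMP2 and restrain SNARE assembly, belonged to the genes with the steepest step into CP. STXBP5L (TSDBGID.4259, chromosome 1, 21796940 to 22281378) measured 1.16, 0.720 and 1.23 in VZ, 1.38, 1.90 and 1.71 in ISVZ, 3.71, 2.81 and 3.50 in OSVZ, and 10.4, 8.71 and 15.1 in CP. All CP libraries lay far above all others, with differences of 2.09 ± 0.15, adjusted p = 1.03e-06 against the germinal layers and 1.49 ± 0.19, adjusted p = 0.000192 against OSVZ. STXBP6 (TSDBGID.22471, chromosome 5, 112272938 to 112546606) measured 2.00, 2.18 and 3.28 in VZ, 1.94, 1.09 and 2.02 in ISVZ, 3.50, 2.48 and 4.93 in OSVZ, and 10.2, 9.53 and 19.4 in CP. CP 3 was the highest, VZ and ISVZ overlapped, and the differences were 1.96 ± 0.23, adjusted p = 3.03e-05 against the germinal layers and 1.57 ± 0.28, adjusted p = 0.00174 against OSVZ. STXBP5 had layer means of 1.75, 2.44, 3.39 and 8.49 and differed by 1.40 ± 0.16, adjusted p = 2.74e-05 in CP against the germinal layers. These 3 genes were called in CP against OSVZ in each alternative that tested them.

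STXBP4, or Synip, binds syntaxin-4 and is known from insulin-regulated glucose transport. It (TSDBGID.9367, chromosome 16, 3951128 to 4128181) measured 5.57, 3.89 and 6.10 in VZ, 4.61, 2.79 and 4.75 in ISVZ, 1.63, 2.53 and 2.48 in OSVZ, and 1.05, 1.11 and 1.22 in CP. Every CP library lay below every germinal library, against the direction of the other called regulators in this comparison. The difference was -1.11 ± 0.16, adjusted p = 0.000151 against the germinal layers and -0.94 ± 0.20, adjusted p = 0.00476 in OSVZ against VZ. The step from OSVZ to CP (-0.58 ± 0.20, adjusted p = 0.0425) was lost without VZ 1, OSVZ 2, OSVZ 3 or any CP library, with adjusted p from 0.051 to 0.13. COX11, which overlaps STXBP4, fell as well, from 13.1 in VZ to 8.85 in CP by layer means, and their reads may be shared.

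Synaptotagmins carry a pair of C2 domains that bind membranes, in some members only when calcium is present. Of 7 calcium-sensing members, 5 were tested: SYT1, SYT3 and SYT7 were higher in CP than in the germinal layers, SYT9 was lower and SYT6 was not called. Of 8 other members, 5 were tested: SYT4, SYT14 and SYT16 were higher and SYT13 and SYT17 were not called.

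SYT1 is the sensor of fast release. It (TSDBGID.23747, chromosome 7, 74103226 to 74742374) measured 36.1, 24.0 and 23.1 in VZ, 48.2, 63.7 and 39.8 in ISVZ, 52.8, 59.7 and 77.4 in OSVZ, and 153, 133 and 120.2 in CP. The CP libraries lay above all others, and ISVZ and OSVZ overlapped. SYT1 was higher in CP than in the germinal layers by 1.60 ± 0.17, adjusted p = 1.93e-05, than in OSVZ by 1.10 ± 0.21, adjusted p = 0.00297, and in OSVZ than in VZ by 1.17 ± 0.21, adjusted p = 0.0023. Its call in ISVZ against VZ (0.85 ± 0.21, adjusted p = 0.0322) was lost without VZ 2, VZ 3, ISVZ 1 or ISVZ 2, with adjusted p from 0.0721 to 0.143.

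SYT7, a slow, sensitive sensor, had layer means of 1.05, 2.06, 5.87 and 12.2, and differed by 1.95 ± 0.22, adjusted p = 2.75e-05 in CP against the germinal layers. SYT3, another sensitive sensor, had layer means of 3.14, 4.63, 9.12 and 10.3 and was called higher in CP (0.89 ± 0.16, adjusted p = 0.000826) and in OSVZ against VZ (1.27 ± 0.20, adjusted p = 0.00106). SYT6 showed no such order, with layer means of 8.09, 14.2, 11.4 and 11.5 and a difference of -0.01 ± 0.28, adjusted p = 0.973 in CP.

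SYT9 is a further calcium sensor of vesicle release. It (TSDBGID.11676, chromosome 18, 24009411 to 24235489) measured 1.21, 1.34 and 1.59 in VZ, 0.976, 0.566 and 0.913 in ISVZ, 1.19, 1.10 and 3.16 in OSVZ, and 0.259, 0.671 and 0.465 in CP. OSVZ 3 was far above the rest, and every CP library lay below every OSVZ library. The difference in CP was -0.63 ± 0.20, adjusted p = 0.0193 against the germinal layers, lost without CP 1 (-0.53, adjusted p = 0.0935) or CP 3 (-0.64, adjusted p = 0.0556), and -0.88 ± 0.24, adjusted p = 0.0184 against OSVZ, lost without CP 1 (-0.78, adjusted p = 0.0657). SYT2 and SYT10, close relatives of the called sensors, were not tested. SYT2 reached 1 only in OSVZ 2 (1.39) and OSVZ 3 (1.34), and SYT10 stayed at or under 0.900 in every library.

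SYT4 showed the largest difference of all tested members. Its protein sits on dense-core and other transport vesicles, and in mammals it is not a trigger of fast release. SYT4 (TSDBGID.7387, chromosome 13, 33755525 to 33766679) measured 5.00, 2.13 and 31.1 in VZ, 28.5, 21.4 and 22.7 in ISVZ, 81.4, 76.4 and 92.7 in OSVZ, and 541, 667 and 251 in CP. Every CP library was above every other library, CP 3 was the lowest of its layer, and in VZ the third library stood far above the other ones. The difference was 4.11 ± 0.54, adjusted p = 7.61e-05 against the germinal layers and 2.42 ± 0.66, adjusted p = 0.0171 in CP against OSVZ, and the latter was lost without OSVZ 2 (2.36, adjusted p = 0.0505), CP 1 (2.29, adjusted p = 0.0525) or CP 2 (2.14, adjusted p = 0.0638).

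The low SYT4 values of VZ 1 and VZ 2 came from the libraries with the most choroid plexus signal. TTR, which defines choroid plexus, was at 529, 2514 and 33.8 in VZ. In OSVZ against VZ the SYT4 difference was 3.32 ± 0.66, adjusted p = 0.00365 with all libraries and 1.38, adjusted p = 0.0798 without VZ 1 and VZ 2. ISVZ against VZ, not called with all libraries (1.57 ± 0.66, adjusted p = 0.183), was called without VZ 3 (2.53, adjusted p = 0.00987). The part of choroid plexus tissue in these values was not tested.

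The other synaptotagmins that were tested include members that do not bind calcium. SYT16 had layer means of 1.23, 1.45, 2.33 and 6.11 and was higher in CP (1.45 ± 0.15, adjusted p = 1.16e-05), but an overlapping gene, U730, rose from 0.293 in VZ to 22.2 in CP, so its value is uncertain. SYT14 had layer means of 1.83, 2.37, 2.69 and 3.70, with a difference of 0.52 ± 0.14, adjusted p = 0.00835 that was lost without CP 1 (0.42, adjusted p = 0.0526). SYT13 peaked in OSVZ, with layer means of 8.84, 16.9, 26.7 and 20.7, and was higher there than in VZ (1.45 ± 0.27, adjusted p = 0.00242). In CP against the germinal layers SYT13 was called only without CP 3 (0.61, adjusted p = 0.0405). SYT17 had layer means of 2.61, 1.38, 2.15 and 0.561. Its CP difference (-0.88 ± 0.35, adjusted p = 0.052) was called with the replicate number as a block (adjusted p = 0.0363) and without OSVZ 3, where SYT17 was at 4.84 (-0.69, adjusted p = 0.0228). It was also called without OSVZ 1 (-1.03, adjusted p = 0.0158) or CP 2 (-1.11, adjusted p = 0.0477).

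**Figure D3:**
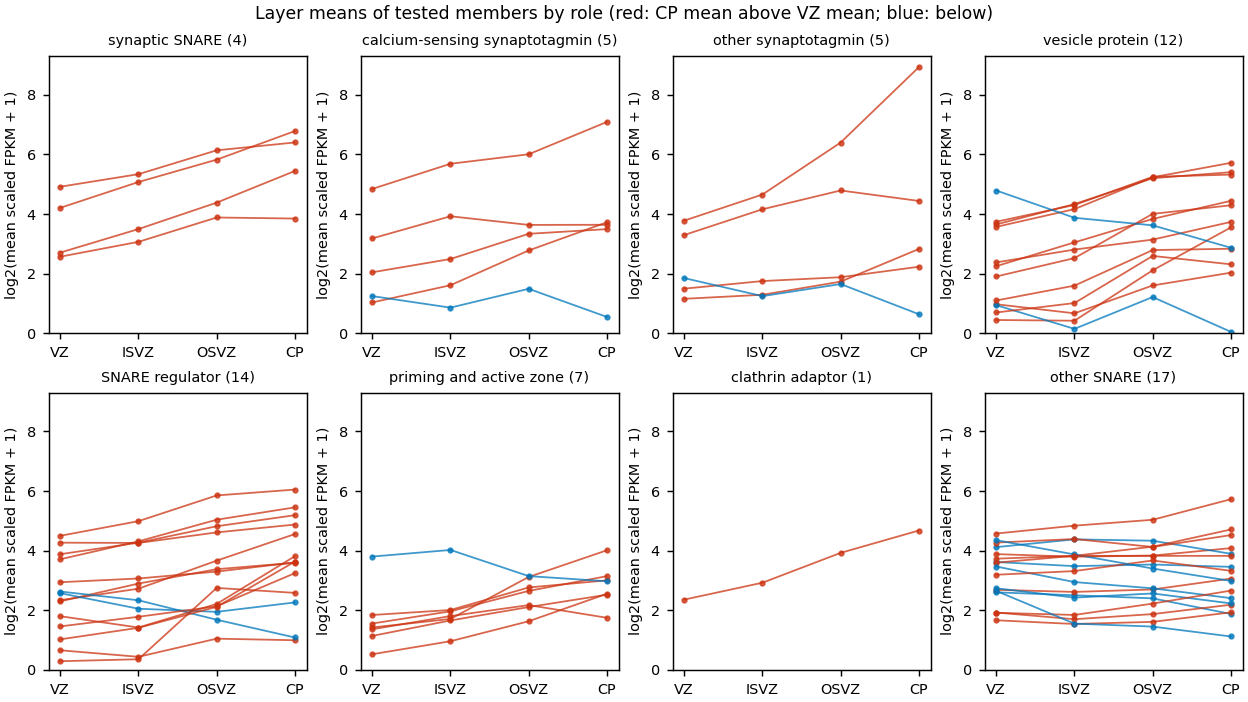
Log2 of the mean scaled FPKM plus 1 (vertical axes) in each layer for the 65 tested members, 1 panel per role and 1 line per gene, red where the CP mean lies above the VZ mean and blue where it lies below. Most lines outside the other SNAREs end higher in CP than in VZ. The exceptions are SYT9, SYT17, SYPL1, SV2C, STXBP3, STXBP4 and UNC13B. Lines of the other SNAREs are flatter and split in both directions.

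Most proteins of the vesicle itself were higher in CP. Of 13 members, 12 were tested: 10 were higher in CP than in the germinal layers, SYPL1 was lower and SV2C was not called. The same division, 10 higher and SYPL1 lower, was seen in OSVZ against VZ, whereas in CP against OSVZ RAB3B and RAB3D were higher and SYPL1 was lower. The RAB3D call there (0.59 ± 0.19, adjusted p = 0.0338) was lost without OSVZ 2, OSVZ 3, CP 1 or CP 3, with adjusted p from 0.0594 to 0.122.

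Synaptophysin, SYP, is an abundant membrane protein of synaptic vesicles. SYP (TSDBGID.26671, placed on an unassigned contig) measured 15.9, 9.87 and 11.4 in VZ, 20.0, 20.0 and 16.3 in ISVZ, 29.0, 28.0 and 54.3 in OSVZ, and 41.6, 41.0 and 34.7 in CP. OSVZ 3 was the highest of all 12 libraries, and OSVZ 1 and OSVZ 2 lay below CP. SYP was higher in CP than in the germinal layers by 0.92 ± 0.19, adjusted p = 0.00199 and in OSVZ than in VZ by 1.47 ± 0.24, adjusted p = 0.00122. Its relative SYPL1, or pantophysin, is found on transport vesicles of most cells. SYPL1 (TSDBGID.22784, chromosome 6, 78740842 to 78829096) measured 26.0, 26.9 and 27.2 in VZ, 14.9, 9.24 and 17.0 in ISVZ, 11.8, 11.3 and 10.9 in OSVZ, and 7.43, 4.36 and 7.16 in CP. Every CP library lay below all others, with the most negative difference of the tested members (-1.24 ± 0.17, adjusted p = 0.000102).

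SYPL1 had already fallen in ISVZ against VZ (-0.95 ± 0.21, adjusted p = 0.0167), a call lost without VZ 2 (-0.95, adjusted p = 0.0705), VZ 3 (-0.94, adjusted p = 0.0597) or ISVZ 2 (-0.71, adjusted p = 0.0552). It differed by -1.17 ± 0.21, adjusted p = 0.00206 in OSVZ against VZ, and in CP against OSVZ by -0.78 ± 0.21, adjusted p = 0.0154, the latter lost without CP 2 (-0.57, adjusted p = 0.0591). An antisense gene at SYPL1 fell with it, from 36.0 in VZ to 11.1 in CP by layer means, and their reads may be shared.

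Synapsins tie vesicles into a reserve cluster. SYN1 (TSDBGID.1220, chromosome 3, 36628254 to 36714159) measured 2.28, 3.10 and 2.88 in VZ, 5.70, 5.20 and 3.35 in ISVZ, 12.03, 9.81 and 23.4 in OSVZ, and 19.5, 16.4 and 20.0 in CP. ISVZ and VZ were low, OSVZ overlapped CP through OSVZ 3, and the differences were 1.52 ± 0.22, adjusted p = 0.000137 in CP against the germinal layers and 2.02 ± 0.26, adjusted p = 0.000427 in OSVZ against VZ. SYN2 (TSDBGID.16607, chromosome 24, 16836585 to 17112764) measured 0.518, 0.629 and 0.727 in VZ, 1.59, 0.699 and 0.776 in ISVZ, 2.46, 2.49 and 10.2 in OSVZ, and 3.54, 4.03 and 4.37 in CP. OSVZ 3 exceeded every other library, and OSVZ 1 and OSVZ 2 lay below CP. SYN2 was called higher in CP (0.96 ± 0.30, adjusted p = 0.0197), but not without CP 2 (0.96, adjusted p = 0.0602) or CP 3 (0.91, adjusted p = 0.0686). SYN3 had layer means of 1.15, 2.03, 5.93 and 6.15 and was called in the same comparisons (1.03 ± 0.21, adjusted p = 0.00164 and 1.70 ± 0.26, adjusted p = 0.000876). TIMP3, which overlaps SYN3, went the other way, from 39.0 in VZ to 3.63 in CP by layer means, and their reads may be shared.

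The SV2 proteins are vesicle glycoproteins, and SV2A binds the antiepileptic drug levetiracetam. SV2A (TSDBGID.2065, chromosome 8, 80749678 to 80784614) measured 11.0, 10.8 and 10.9 in VZ, 19.3, 19.5 and 12.1 in ISVZ, 28.9, 27.1 and 54.0 in OSVZ, and 54.6, 49.9 and 50.5 in CP. CP overlapped OSVZ only through OSVZ 3, and SV2A was higher in CP than in the germinal layers (1.43 ± 0.19, adjusted p = 9.3e-05) and in OSVZ than in VZ (1.59 ± 0.24, adjusted p = 0.000772). SV2B (TSDBGID.16156, chromosome 23, 43354467 to 43623431) measured 0.636, 1.56 and 0.708 in VZ, 0.654, 0.594 and 0.533 in ISVZ, 2.38, 1.40 and 2.36 in OSVZ, and 2.87, 2.28 and 4.15 in CP. It was low throughout, with a difference of 0.94 ± 0.18, adjusted p = 0.00108 in CP. The SV2B call in OSVZ against VZ (0.64 ± 0.22, adjusted p = 0.0493) was lost without VZ 1, VZ 3, any ISVZ library, OSVZ 1, OSVZ 3 or CP 1, with adjusted p from 0.06 to 0.147. SV2C measured 0.470, 1.28 and 1.03 in VZ, 0.0738, 0.0849 and 0.171 in ISVZ, 0.0266, 0.0307 and 3.92 in OSVZ, and 0.0165, 0.0820 and 0.0113 in CP. Its level came from OSVZ 3 and the VZ libraries, and no comparison called it.

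RAB3 GTPases mark vesicles ready to dock. RAB3A (TSDBGID.17974, chromosome 28, 1299212 to 1307865), the main form of brain, measured 11.8, 10.5 and 12.5 in VZ, 24.4, 19.2 and 14.0 in ISVZ, 32.5, 27.8 and 47.4 in OSVZ, and 48.6, 37.2 and 38.4 in CP. It was higher in CP than in the germinal layers by 1.02 ± 0.18, adjusted p = 0.000519 and in OSVZ than in VZ by 1.52 ± 0.22, adjusted p = 0.000611, while CP and OSVZ overlapped. RAB3B (TSDBGID.24617, chromosome 8, 38851959 to 38937787) measured 0.248, 0.407 and 0.438 in VZ, 0.266, 0.374 and 0.384 in ISVZ, 1.95, 1.07 and 6.99 in OSVZ, and 8.23, 13.1 and 10.9 in CP. It was near absent from VZ and ISVZ, where no library reached 1, and every CP library lay above OSVZ 3. The RAB3B differences were 2.62 ± 0.31, adjusted p = 3.56e-05 against the germinal layers and 1.66 ± 0.38, adjusted p = 0.0071 against OSVZ. RAB3C had layer means of 3.77, 7.29, 13.3 and 20.8 and RAB3D of 4.20, 6.02, 7.84 and 12.3, with CP differences of 1.36 ± 0.29, adjusted p = 0.00203 and 0.96 ± 0.15, adjusted p = 0.000307.

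Active zone and priming genes make the release site and ready its vesicles. Of 10 members, 7 were tested: 5 were higher in CP than in the germinal layers, UNC13B was lower and BSN was not called. In OSVZ against VZ, BSN, PCLO, RIMS2, RIMS4 and UNC13A were higher, and RIMS3, at 0.78 ± 0.29, adjusted p = 0.0666, was called higher without OSVZ 2 (1.11, adjusted p = 0.00971) or with quantile normalisation (0.88, adjusted p = 0.0368).

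PCLO and BSN encode the giant scaffolds piccolo and bassoon, and they differed in CP. PCLO (TSDBGID.23274, chromosome 6, 87756534 to 88289408) measured 2.62, 1.34 and 1.87 in VZ, 3.76, 2.79 and 2.18 in ISVZ, 5.94, 4.14 and 5.75 in OSVZ, and 8.75, 7.14 and 7.65 in CP. Every CP library lay above every germinal library, with differences of 1.10 ± 0.16, adjusted p = 0.000151 against the germinal layers and 1.10 ± 0.19, adjusted p = 0.00196 in OSVZ against VZ. CP against OSVZ (0.50 ± 0.19, adjusted p = 0.0708) was called with the replicate number as a block (adjusted p = 0.0189). BSN (TSDBGID.722, chromosome 24, 24107416 to 24179198) measured 1.92, 1.39 and 1.41 in VZ, 3.09, 2.40 and 2.01 in ISVZ, 4.35, 2.55 and 3.65 in OSVZ, and 2.98, 1.80 and 2.30 in CP. BSN peaked in OSVZ, higher there than in VZ (0.80 ± 0.19, adjusted p = 0.00952), and CP did not differ from the germinal mean at the threshold (-0.03 ± 0.16, adjusted p = 0.87). With the block, BSN was lower in CP than in OSVZ (-0.42, adjusted p = 0.0286), against -0.42 ± 0.19, adjusted p = 0.117 without it.

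UNC13 proteins open syntaxin so that SNAREs can assemble. UNC13A (TSDBGID.17977, chromosome 28, 1578544 to 1630114) measured 1.09, 1.19 and 1.34 in VZ, 3.11, 2.13 and 1.24 in ISVZ, 3.64, 3.05 and 3.25 in OSVZ, and 5.85, 4.68 and 3.71 in CP. The CP libraries lay above all others, with the lowest of them just above OSVZ 1, and the differences were 0.89 ± 0.17, adjusted p = 0.000991 against the germinal layers and 0.97 ± 0.21, adjusted p = 0.00514 in OSVZ against VZ. DDA1, which overlaps UNC13A, rose as well, from 6.25 in VZ to 10.9 in CP by layer means, and their reads may be shared. UNC13B, used more widely, had layer means of 13.0, 15.3, 7.86 and 6.86 and was lower in CP (-0.67 ± 0.20, adjusted p = 0.0139), a call lost without CP 3 (-0.54, adjusted p = 0.0797). The ratio of the plainly named UNC13A entry to UNC13B was 0.0820 to 0.115 in VZ and 0.674 to 0.720 in CP, under 1 in every library. A copy-named entry, UNC13Ali1, held reads of its own, at 13.7, 12.7 and 13.6 in CP, where UNC13B was at 8.12, 6.94 and 5.51. Which gene was the more abundant in CP is therefore not settled by that ratio. UNC13Ali1 is described further on. UNC13C reached 1 only in OSVZ 3 (3.41), and UNC13D, of blood cells, stayed near 0.

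RIM proteins link vesicles to calcium channels. RIMS4 had layer means of 1.69, 2.27, 7.68 and 15.1, RIMS2 of 0.441, 0.949, 2.10 and 4.87 and RIMS3 of 2.59, 3.03, 5.80 and 7.03. All 3 were higher in CP than in the germinal layers, by 1.97 ± 0.24, adjusted p = 4.42e-05 for RIMS4, 1.53 ± 0.21, adjusted p = 0.000116 for RIMS2 and 0.84 ± 0.24, adjusted p = 0.0109 for RIMS3. The entry named RIMS1 stayed at or under 0.172 in every library and was not tested, with values of 0, 0.0158 and 0.0144 in VZ, 0.0184, 0.0517 and 0.0328 in ISVZ, 0.0303, 0.0904 and 0.0271 in OSVZ, and 0.0435, 0.172 and 0.0878 in CP. SNAP91, whose name fits the rule, is the clathrin adaptor AP180 that retrieves vesicle membrane. SNAP91 had layer means of 4.13, 6.60, 14.2 and 24.6 and was higher in CP than in the germinal layers (1.64 ± 0.23, adjusted p = 0.000106) and in OSVZ than in VZ (1.47 ± 0.28, adjusted p = 0.00272).

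SNAREs of general membrane traffic did not move together. Of 21 members, 17 were tested, and in CP 7 were higher, 5 lower and 5 not called, with a median log2 difference of 0.03. Among all tested genes 24% were higher and 28.7% lower there, so the 5 of 17 called lower lay near the background. In OSVZ against VZ, STX18 was called higher and STX4, VAMP3 and VAMP5 lower, 4 of the 17, not far from the background of 11.7% higher and 16.2% lower given above. Their summed level was nearly flat, at 169 to 178 in VZ, 163 to 180.4 in ISVZ, 167 to 180.3 in OSVZ and 198 to 201 in CP.

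The SNAREs of this group called lower in CP were VAMP3, VAMP5, STX4, STX10 and STX16. VAMP3, or cellubrevin, serves constitutive recycling to the surface. VAMP3 (TSDBGID.2635, chromosome 13, 75749835 to 75760149) measured 19.3, 22.3 and 16.7 in VZ, 12.6, 12.2 and 16.1 in ISVZ, 9.09, 10.9 and 8.73 in OSVZ, and 7.59, 6.67 and 6.49 in CP. Every CP library lay below every germinal library, with -0.89 ± 0.11, adjusted p = 6.19e-05 against the germinal layers and -0.95 ± 0.14, adjusted p = 0.000721 in OSVZ against VZ. CP against OSVZ (-0.41 ± 0.14, adjusted p = 0.0416) lost its call with the replicate block (adjusted p = 0.0503), and without VZ 1, OSVZ 1, OSVZ 2 or any CP library (adjusted p from 0.0503 to 0.147).

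VAMP5, first known from muscle cells, was highest in VZ. VAMP5 (TSDBGID.7057, chromosome 12, 40501614 to 40523508) measured 4.24, 7.02 and 4.58 in VZ, 2.11, 1.77 and 1.93 in ISVZ, 1.19, 1.76 and 2.27 in OSVZ, and 0.869, 1.46 and 1.20 in CP. All VZ libraries lay above all others. The differences were -1.19 ± 0.19, adjusted p = 0.00129 in OSVZ against VZ, -1.07 ± 0.19, adjusted p = 0.00711 in ISVZ against VZ and -0.76 ± 0.16, adjusted p = 0.00195 in CP against the germinal layers. STX4, the syntaxin of regulated surface delivery, had layer means of 10.1, 6.71, 5.67 and 4.31 and fell in CP (-0.67 ± 0.14, adjusted p = 0.0016), although it overlaps another gene with which reads may be shared. STX10 and STX16, of the trans-Golgi network, fell by smaller amounts (-0.62 ± 0.11, adjusted p = 0.000683 and -0.38 ± 0.09, adjusted p = 0.00427).

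The SNAREs of this group called higher in CP were STX7, STX18, STX5, STX12, STX17, SNAP29 and STX3. Whether calls went by compartment was not tested. STX7, of late endosomes, had layer means of 22.8, 27.6, 31.8 and 51.9 and rose most (0.91 ± 0.14, adjusted p = 0.000205), although an antisense gene at its locus rose from 3.18 to 20.9 as well. STX18, of the endoplasmic reticulum, had layer means of 11.1, 13.2, 16.5 and 25.2 (0.85 ± 0.14, adjusted p = 0.000407), and it overlaps the neuronal gene NSG1, which rose from 10.6 to 42.3. How far their reads were shared with these neighbours was not tested.

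The remaining called members of this group showed smaller differences. STX5, of the Golgi, differed by 0.65 ± 0.16, adjusted p = 0.00573 in CP, STX12 by 0.40 ± 0.09, adjusted p = 0.00248 and STX17, of autophagosomes, by 0.35 ± 0.09, adjusted p = 0.00491. ERP44, which overlaps STX17, rose from 10.4 in VZ to 15.5 in CP by layer means, and their reads may be shared. SNAP29 (0.25 ± 0.07, adjusted p = 0.0105) lost its call without CP 2 (0.22, adjusted p = 0.0503), and STX3 (0.33 ± 0.11, adjusted p = 0.0289) without CP 1 (0.29, adjusted p = 0.111) or CP 2 (0.32, adjusted p = 0.0877). STX2 was not called with all libraries and was lower with the replicate block, at -0.34 ± 0.14, adjusted p = 0.0616 without the block and adjusted p = 0.0231 with it. It was also called without ISVZ 2 (-0.39, adjusted p = 0.0247) or OSVZ 2 (-0.38, adjusted p = 0.0376). SNAP47, STX6, STX8 and VAMP4 were not called, with differences from -0.09 (SNAP47) to 0.27 (STX8).

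**Figure D4:**
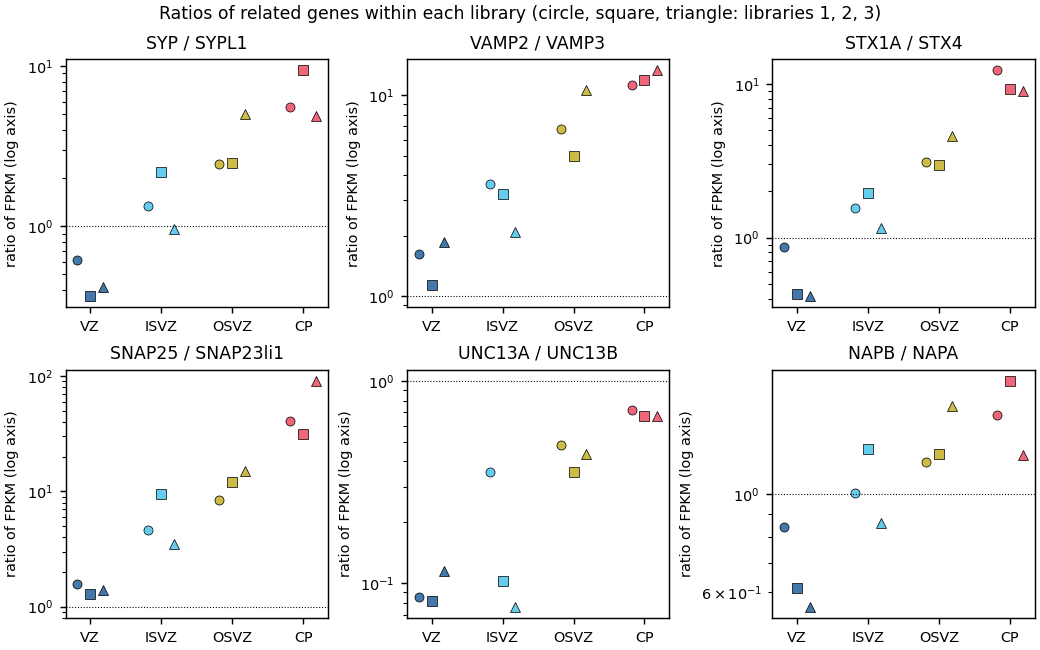
Ratio of FPKM of related genes within each library (vertical axes, log scale; the dotted line marks 1), with circles, squares and triangles for libraries 1, 2 and 3. SYP over SYPL1 and STX1A over STX4 lie below 1 in all VZ libraries and above 1 in all OSVZ and CP libraries. The plainly named UNC13A entry, without UNC13Ali1, stays below UNC13B everywhere.

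Ratios within a library put the synaptic gene beside its general relative, free of scaling. SYP over SYPL1 was 0.466 ± 0.131 (SD, n = 3) in VZ, 1.49 ± 0.616 in ISVZ, 3.31 ± 1.46 in OSVZ and 6.61 ± 2.44 in CP. VAMP2 over VAMP3 was 1.54 ± 0.369 in VZ, 2.97 ± 0.796 in ISVZ, 7.46 ± 2.86 in OSVZ and 12.1 ± 1.04 in CP. STX1A over STX4 was 0.572 ± 0.257 in VZ, 1.55 ± 0.393 in ISVZ, 3.54 ± 0.894 in OSVZ and 10.2 ± 1.79 in CP. SNAP25 over SNAP23li1, the copy entry of its general relative, was 1.42 ± 0.141 in VZ, 5.87 ± 3.19 in ISVZ, 11.9 ± 3.36 in OSVZ and 54.5 ± 32.0 in CP. For each of these ratios every CP library lay above every VZ and ISVZ library. For SYP over SYPL1, CP and OSVZ overlapped through OSVZ 3. These pairs were set side by side after their values were known, and a ratio shows unequal change only.

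Some members are listed under a copy name, which the rule leaves out. Of 10 such entries, 5 were tested, and they may hold reads of the plainly named gene. Whether an entry is a copy or the main locus of its gene was not tested. The plain RIMS1 entry (chromosome 4, 91238705 to 91249392) lies within RIMS1li1 (90720162 to 91250017). The plain SNAP23 entry runs only from 22344903 to 22345518 on chromosome 14, whereas SNAP23li1 runs from 96549603 to 96585824 on chromosome 5. RIMS1li1 had layer means of 3.33, 3.70, 7.41 and 12.9 and was higher in CP (1.34 ± 0.16, adjusted p = 3.55e-05), while UNC13Ali1 had 2.62, 4.27, 7.13 and 13.3 (1.43 ± 0.13, adjusted p = 4e-06). Both went in the direction of their families' called RIM and UNC13A members. SNAP23li1, for the widely expressed relative of SNAP25, had layer means of 12.3, 6.07, 4.64 and 2.30 and was lower in CP (-1.31 ± 0.16, adjusted p = 5.16e-05), while the plain SNAP23 entry stayed under 1.

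SYT11 has no entry under its own name. SYT11li1 measured 149, 160.5 and 164 in VZ, 80.7, 76.9 and 88.3 in ISVZ, 59.5, 72.2 and 66.3 in OSVZ, and 44.5, 47.6 and 52.1 in CP. It was the most abundant synaptotagmin entry in VZ and fell in CP (-0.97 ± 0.09, adjusted p = 3.81e-06), with no overlap between VZ and the other layers. SYT11 is known to lack calcium binding and to act in membrane retrieval in neurons and glia. SYT1 over SYT11li1 was 0.141 to 0.242 in VZ and 2.31 to 3.43 in CP. VAMP7li1 had layer means of 3.34, 3.18, 3.51 and 4.32 and was not called (0.27 ± 0.13, adjusted p = 0.0967).

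The untested members were mostly near 0. Of 16, 13 never reached 1 scaled FPKM in any library and 3, SYT2, SYT12 and UNC13C, reached it in 1 or 2 libraries. They include RIMS1, SNAP23 and VAMP7, whose copy-named entries held reads, CPLX4, STX11, STX19, SYPL2, SYT8, SYT10, SYT15, UNC13D and VAMP1. An entry named VAMP712, a name used for plant genes, also met the rule and stayed near 0. Of the tested members, 51 reached 1 in all libraries and 14 fell below 1 in at least 1 library.

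OSVZ 3 held more of the release genes than the other OSVZ libraries. It was the highest OSVZ library for 45 of 65 tested members. The share of all tested genes for which it was the highest was not counted, so that number has no background. For 12 members, 18.46%, it was at least 2 times the mean of OSVZ 1 and OSVZ 2, where 7.184% of all tested genes were. They were RAB3B, RAB3C, RIMS2, RIMS3, RIMS4, SNAP91, SV2C, SYN1, SYN2, SYT7, SYT9 and SYT17. The median ratio of OSVZ 3 to that mean was 1.349 over tested members and 1.009 over all tested genes.

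**Figure D5:**
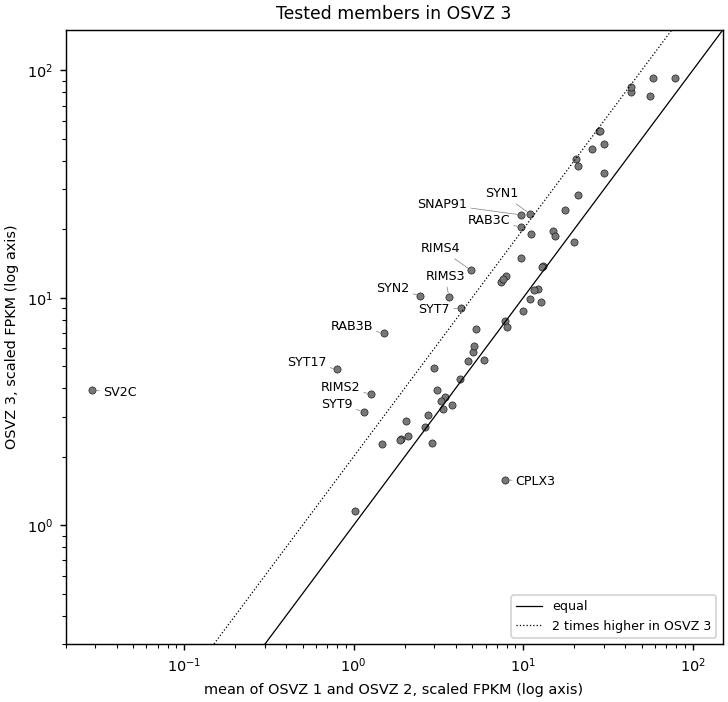
Scaled FPKM in OSVZ 3 (vertical axis, log scale) against the mean of OSVZ 1 and OSVZ 2 (horizontal axis, log scale) for the 65 tested members, with lines at equality and at 2 times. The 12 members on or above the dotted line are named, SV2C lies far to the left with values near 0 in OSVZ 1 and OSVZ 2, and CPLX3 lies below the line of equality.

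Markers of interneurons also differed between these libraries. The 7 markers of the list summed to 85.9, 160.3 and 258 in OSVZ. OSVZ 3 was the highest OSVZ library for SST (18.6, 48.6 and 152), GAD2 (2.86, 4.66 and 12.7), GAD1 (0.283, 0.775 and 1.14), DLX5 (5.07, 8.35 and 15.9) and LHX6 (21.2, 28.8 and 34.5). It was not for DLX1 (25.2, 46.0 and 26.6) or DLX2 (12.6, 23.1 and 15.3). SLC32A1, the transporter of inhibitory transmitter, from the list of other release cycle genes, was at 4.20, 6.84 and 42.3. The summed neuron markers were even, at 1345, 1337 and 1330.0, but single markers were not. NEUROD6 went down over the OSVZ libraries (435, 375 and 233), while TUBB3 (647, 713 and 846) and BCL11B (7.34, 10.8 and 15.9) went up. OSVZ 3 was also the library of the greatest relative depth. The part of interneurons or depth in the values of OSVZ 3 was not tested.

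Leaving out OSVZ 3 left the CP result as it was and moved the comparison of CP with OSVZ. In CP against the germinal layers, 43 members were then higher and 10 lower. Then 31 were higher and 6 lower in OSVZ against VZ. In CP against OSVZ, 27 were higher and 5 lower without OSVZ 3, against 9 and 4 without OSVZ 2 and 12 and 4 without OSVZ 1. Calls among all tested genes there were 4371 with all libraries, 4311 without OSVZ 3, 3233 without OSVZ 2 and 3100 without OSVZ 1. In ISVZ against VZ, 10 were higher and 2 lower without OSVZ 3. Among all tested genes 1374 were then called in that step, against 1229 with all libraries. In CP against OSVZ, NAPA, NAPB, NAPG, NSF, RIMS3, SV2A, SYN1 and VAMP2 were called, as higher, only without OSVZ 3, with adjusted p from 0.000836 (NSF) to 0.0295 (NAPG). Leaving out CP 2 or CP 3 gave 17 calls in all there, against 26 with all libraries. Among all tested genes the calls were 3286 and 3728. In the same comparison, 10 members were called in every alternative that tested them: CPLX1, RAB3B, STX1A, STX7, STXBP5, STXBP5L, STXBP6, SYT1 and SYT16 as higher and STX10 as lower.

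In OSVZ against VZ, 34 of the 41 calls held without each library in turn. Of those that did not, RIMS2 was lost without VZ 2 (0.94, adjusted p = 0.0528). STX18 was lost without VZ 1, VZ 3, OSVZ 2 or OSVZ 3, with adjusted p from 0.0617 to 0.134. STXBP5 was lost without any VZ library, OSVZ 1 or OSVZ 3, with adjusted p from 0.0565 to 0.0859. SYT16 was lost without VZ 2, VZ 3, OSVZ 1 or OSVZ 3, with adjusted p from 0.0729 to 0.123. With VZ 1 and VZ 2 both left out, which leaves a single VZ library assumed to vary like the others, fewer members were called. Fewer of all tested genes were called then as well.

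Other genes of the vesicle cycle, outside the rule, mostly went the same way. The list was chosen with earlier results of these data known, so it is not independent of the members' result. It held 41 genes, of which 38 were tested. In CP against the germinal layers 31 were higher and 2 lower, where 24% and 28.7% of all tested genes were. In OSVZ against VZ 24 were higher and 1 lower, where 11.7% and 16.2% were. Their summed level was 291 to 309 in VZ and 754 to 811 in CP. The median log2 difference was 0.82 in CP. SH3GL2, endophilin of vesicle retrieval, rose most in CP, with layer means of 4.41, 7.51, 19.1 and 71.9 (2.92 ± 0.16, adjusted p = 1.58e-07), followed by the scaffold PPFIA2 with 2.69, 5.79, 12.3 and 34.6 (2.38 ± 0.18, adjusted p = 1.25e-06). SLC17A7, which loads vesicles with glutamate, had layer means of 1.45, 3.84, 11.6 and 23.6 (2.28 ± 0.48, adjusted p = 0.00192).

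Calcium channels and priming factors of the list rose as well. CACNA1B, a presynaptic calcium channel subunit, had layer means of 1.67, 3.12, 5.35 and 5.54 (0.67 ± 0.13, adjusted p = 0.00119), and CADPS, a factor of dense-core vesicle priming, had 3.94, 6.26, 9.48 and 29.2 (2.11 ± 0.23, adjusted p = 1.76e-05). STON2, an endocytic adaptor, fell, with layer means of 13.3, 7.06, 6.83 and 1.11 (-2.21 ± 0.17, adjusted p = 1.31e-06). SLC32A1, which loads inhibitory transmitter, was lower in CP as well, with layer means of 9.64, 11.8, 17.8 and 3.39 (-1.48 ± 0.56, adjusted p = 0.0431). The related glutamate transporter SLC17A6 peaked in OSVZ, with layer means of 5.62, 13.6, 16.9 and 6.50, higher there than in VZ (1.57 ± 0.44, adjusted p = 0.0195) and not called in CP against the germinal layers (-0.72 ± 0.36, adjusted p = 0.111).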

How the data were processed

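RNA of 4 cortical layers, 3 libraries each, was measured by RNA sequencing of laser-cut tissue with a poly(A) mRNA library kit, per the labels' protocols. The authors deposited 1 table of FPKM per library, with HISAT2 and Cufflinks named in the submitters' processing notes. Not given in the sources used here are tool versions, genome build, annotation and strand setting. Coordinates are those of the deposited tables, with 1 added to each start. An overlap with another expressed gene is named for some members only, and other members overlap such genes too.

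Entries were joined by gene ID (360 IDs had more than 1 entry and 4 a failed status). Each library's FPKM was divided by a scale factor, the median over 10200 genes (1 or more in all libraries) of the ratio to each gene's geometric mean. Genes at 1 or more scaled FPKM in at least 3 libraries (14101) entered a linear model in limma 3.58.1 (R 4.3.3) on log2(scaled FPKM + 1), with an intensity trend, 1 mean per layer and 8 residual degrees of freedom. Contrasts were two-sided, with Benjamini-Hochberg adjustment over all tested genes and a threshold of 0.05. The script was tested on simulated data.

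The members, the roles and the lists of other genes were chosen with earlier results of these data known. Values in every library are given for a fixed list of core members and for the 3 highest and 3 lowest differences among called members of each contrast. Members that went against their role group are also named, and some genes in the counts are not reported here by name. Libraries with the same number were checked for pairing by correlating their deviations from the layer means. All pairs of the 3 comparisons of CP with another layer and of VZ with ISVZ exceeded 0.1. Not all pairs did for VZ with OSVZ (0.425, 0.063 and 0.247) and ISVZ with OSVZ (0.348, 0.146 and 0.083). Unless a block is named, values come from the fit without the replicate number. For the comparisons of CP and of ISVZ with VZ, the fit with the number as a block is given beside a result where it changes a call. Alternatives were other scalings, a pseudocount of 0.1, no filter, a filter of 5, the replicate number as a block, and leaving out each library. No sequence was printed or analysed.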

Additional observations from a re-analysis of the deposited data

How the results depend on the processing

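No call of a member changed its direction in any alternative. In CP against the germinal layers, 44 of the 52 calls held in every alternative that tested them, with 39 to 43 members higher and 7 to 10 lower when 1 library was left out. In OSVZ against VZ, 17 of 41 held in all, with 30 to 35 higher and 5 to 7 lower without 1 library, and 48 to 54 members passed the F test. Among all tested genes, leaving out 1 library gave 6213 to 7502 calls in CP against the germinal layers, against 7435 with all. In OSVZ against VZ it gave 2578 to 3981, against 3935 with all. Without VZ 1 and VZ 2 together, a single VZ library was left. Fewer members were then called in OSVZ against VZ, ISVZ against VZ and OSVZ against ISVZ, and so were fewer of all tested genes. The cause of these changes was not tested beyond the loss of samples.

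In CP against OSVZ, 26 members were called, 16 without a filter on low values and 13 to 32 without 1 library. Calls among all tested genes were 4371, 3398 and 3100 to 4397. In ISVZ against VZ, 4 were called, 1 without a filter, and 1 to 12 without 1 library. Calls among all tested genes were 1229, 787 and 403 to 1374. In OSVZ against ISVZ, 1 was called, against 0 with FPKM as deposited, with equal totals, with a pseudocount of 0.1 and without a filter, where limma had 32, 36, 36 and 36 members at an unadjusted p under 0.05. Quantile normalisation gave 2 there, a filter of 5 gave 8, and leaving out 1 library gave 0 to 9. Calls among all tested genes there were 85, and 54, 32, 19 and 8 in the named alternatives with 0 members. For all genes, quantile normalisation gave 156, a filter of 5 gave 299, and leaving out 1 library gave 2 to 556. The cause was not tested, except that an absent filter raises the number of genes tested to 41048 and a filter of 5 lowers it to 8799.

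With the replicate number as a block, 5 members were called in OSVZ against ISVZ and 36 higher and 6 lower in OSVZ against VZ. Among all tested genes the block gave 206 and 4505 calls in these comparisons, against 85 and 3935 without it. In OSVZ against VZ, NAPA and STX6 gained a call and SV2B lost it (adjusted p = 0.0622). Correlations of same-numbered deviations ranged from 0.063 to 0.425, and 16 of 18 exceeded 0.1. The block changed the call of STX2 and SYT17 in CP against the germinal layers, of BSN, PCLO, STX6, STX8 and VAMP3 in CP against OSVZ, and of STX1A, RAB3D and SYT6 in ISVZ against VZ. It changed no other call of a member in these comparisons.

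The number of reads is not known, so no counting error is given, and values under 1 FPKM rest on few reads. The median width of the deposited bounds, halved, was 6.77% to 11.1% of the value per library.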

Other observations

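Release genes outside the lists of core members were also uneven between libraries. In VZ, SV2C was at 0.470, 1.28 and 1.03, while ISVZ and CP libraries stayed at or under 0.171. UNC13C, not tested, was at 3.41 in OSVZ 3 and at 0.465 and 0.580 in the other OSVZ libraries. SYT17 was at 0.460, 1.14 and 4.84 in OSVZ. These values were singled out after they were seen and have no explanation here.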
